A study of Drosophila melanogaster with 14 samples.

Results

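The zygotic cellularization genes described here are nullo, bnk, slam, Sry-alpha, halo and SNCF, taken by gene symbol from the normalized counts of a Drosophila melanogaster RNA-seq series. All 6 were found in the table of wt stages and extracts, which holds 15682 genes, and in the table of mutant embryos, which holds 15288 genes. The first table has early wt embryos (whole Oregon R embryos of 0 to 45 min after egg laying) and late wt embryos of 90 to 180 min, split into a cytoplasmic and a nuclear extract. The second has whole embryos of 0 to 180 min that were wt or came from mothers mutant for Slbp (Slbp 10/15 or Slbp 10/12) or for grp (grp fs1). Each of the 7 groups has 2 libraries. The wt groups are Oregon R, and the mutant groups had Oregon R fathers. Any strain difference between mutant and wt mothers cannot be told apart from the genotype. The genotypes are those of the mothers, described as trans-heterozygous and crossed with Oregon R males, so that the embryos themselves carried paternal wt alleles. grp encodes Chk1, a kinase of the checkpoint that slows the last syncytial divisions, and Slbp encodes the protein that binds the stem-loop of histone mRNAs. Libraries were made from pooled embryos of a time window, so that a lower level of a gene cannot be told apart from fewer embryos at the stage that expresses it.

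The early Drosophila embryo divides its nuclei in a common cytoplasm under the control of maternal RNA. At the blastoderm stage membrane then grows down between the nuclei of the cortex and closes into cells, a process called cellularization that needs a small number of zygotic genes beside the maternal cytoskeleton. slam recruits RhoGEF2 to the advancing furrow and is needed for membrane growth. nullo, bnk and Sry-alpha act on the actin network of the furrow: nullo stabilises the furrow and its junctions, bnk keeps the actomyosin network from constricting too early and Sry-alpha is needed for its order. halo controls the transport of lipid droplets along microtubules at the same stage. No role is given here for SNCF.

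Most of the 6 genes have no intron. In the BDGP6.54 annotation nullo (FBgn0004143) lies on chromosome X from 7049476 to 7050321 on the plus strand, in 1 exon. bnk (FBgn0004389) lies on 3R from 31193362 to 31194389 on the plus strand, also in 1 exon. slam (FBgn0043854) lies on 2L from 6372388 to 6377284 on the plus strand, with 2 transcripts of 2 and 3 exons, and is the only one of the 6 with an intron in every transcript. Sry-alpha (FBgn0003510) lies on 3R from 30039719 to 30043071 on the plus strand, with 1 transcript of 1 exon and 1 of 2 exons. halo (FBgn0001174) lies on 2L from 1517533 to 1518148 on the minus strand, in 1 exon. SNCF (FBgn0036349) lies on 3L from 13378583 to 13379190 on the plus strand, in 1 exon. Thus 4 of the 6 have no intron in any transcript, against 15.3% of the 13986 protein-coding genes of this annotation, and 5 have an intronless transcript, against 17.5%. The gene lengths that the authors used ran from 608 bases for SNCF and 653 for halo to 4093 for slam. The median over protein-coding genes was 1667 bases, which slam and Sry-alpha (1872) exceeded, and 9.85% of these genes were shorter than SNCF.

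Some reads of the 6 genes could belong to neighbours. The longer Sry-alpha transcript of 3300 bases shares all its exon bases with a transcript of Sry-beta, and the shorter one of 1855 bases lies wholly inside that Sry-beta transcript. Sry-beta had 1212 to 1462 normalized counts in the 8 libraries of the mutant table and 1293 to 2415 in the 6 libraries of stages and extracts. SNCF shares 49 exon bases with asRNA:CR45886 on the other strand, and whether the counting used strand is not given in the sources used here. nullo and bnk overlap with the spans of CG12541 and mesh on the other strand, with 0 shared exon bases. SNCF also overlaps with the span of the protein-coding gene CG14111 on its own strand, with 0 shared exon bases. For bnk the length of 1572 bases used by the authors exceeds its span of 1028 bases in BDGP6.54, and its levels per length rest on the former.

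Zelda, the maternal pioneer factor encoded by vfl, opens the regulatory regions of early zygotic genes and binds the heptamer CAGGTAG. The sites that the study lists as matches to the Zelda motif are printed for 4 of the 6 genes. Each is 10 bases long and written 5′ to 3′, with the heptamer or its reverse complement CTACCTG in capitals.
bnk: cCAGGTAGtc
bnk: ggCTACCTGa
bnk: tCAGGTAGtt
Sry-alpha: ttCTACCTGt
halo: gCAGGTAGcc
halo: gCAGGTAGct
SNCF: atCTACCTGc
All 7 were listed as matches to the Zelda motif, so that the shared heptamer follows from how they were picked. The bases beside it differ. The list covers genes that the study found enriched in late blastoderm embryos, and as read here held no Zelda site for nullo or slam. Whether the study counted nullo and slam among those genes was not checked. Sites that the study lists for nuclear extracts were not searched. The share of all promoters with this heptamer was not analysed, since no promoter sequence was used.

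The libraries held 17368684 to 33866670 reads counted in genes. grp had 2059 and 1718 normalized counts in grp fs1 against 14113 and 13306 in wt, and Slbp had 186 to 262 in the 4 Slbp mutant libraries against 2776 and 2873 in wt, as the labels say. The small nuclear RNAs, which work in the nucleus, summed to 714919 and 1151180 in the cytoplasmic and 73732 and 70197 in the nuclear libraries, and 79 of 85 ribosomal protein genes were higher in the cytoplasmic libraries by limma. The first of these runs against the names of the extracts, which are used here as labelled. Of 6 other noncoding RNAs of the nucleus Hsromega was higher (1.70, limma adjusted p = 0.00042) and roX2 lower (-1.76, limma adjusted p = 0.0054) in the nuclear libraries, and 4 were not called, among them roX1 (0.07). A list of 16 muscle, neuron and cuticle genes of later embryos summed to 36830 and 32766 in the early libraries, against 5939 and 30764 in cytoplasmic and 43499 and 16143 in nuclear ones. RNA of genes of later embryos was thus read in the early libraries, and its part in their levels of the 6 genes was not tested. A list of 12 yolk and eggshell genes, markers of ovary and female fat body, summed to at most 27.7 in any library. Nothing in the sources says that replicates were separate collections, so that p-values measure the spread between these libraries, which may be technical.

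Each of the 6 genes had a higher level in both late extracts than in early embryos. nullo had 69.2 and 16.6 normalized counts in early embryos, 687 and 686 in cytoplasmic extracts and 824 and 1002 in nuclear extracts. bnk had 119.6 and 28.0 in early embryos, 705 and 1395 in cytoplasmic extracts and 2354 and 3360 in nuclear extracts. Both genes rose above their early level in every late library, and the early values rest on as few as 19 reads for nullo and 32 for bnk. slam had 4794 and 3504 normalized counts in early embryos, 10600 and 12308 in cytoplasmic extracts and 35941 and 44572 in nuclear extracts. Its nuclear libraries stood above its cytoplasmic ones, and these above its early ones. Sry-alpha had 811 and 330.3 normalized counts in early embryos, 12481 and 13334 in cytoplasmic extracts and 23048 and 29218 in nuclear extracts. halo had 236 and 69.0 in early embryos, 4847 and 7037 in cytoplasmic extracts and 4237 and 5880 in nuclear extracts. SNCF had 232 and 56.8 in early embryos, 5744 and 8382 in cytoplasmic extracts and 6511 and 8186 in nuclear extracts. For halo and SNCF the libraries of both extracts overlapped, whereas every late library of every gene lay above both early libraries. The share of all genes with this separation was not computed. The early libraries themselves differed: replicate 1 was higher than replicate 2 for all 6 genes, by 1.37 times for slam and up to 4.28 times for bnk.

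**Figure D1:**
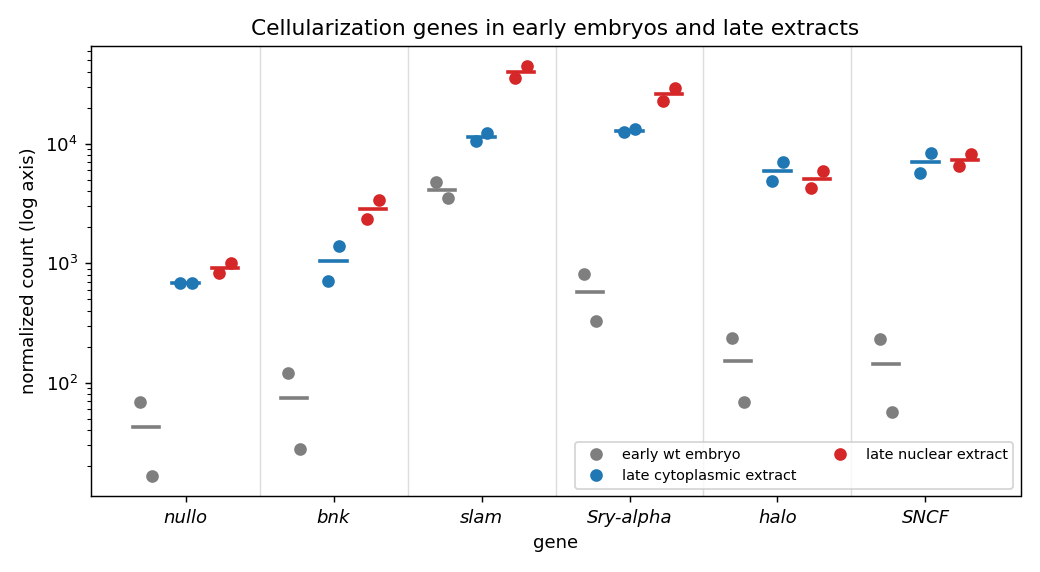
Normalized counts (log axis) of the 6 genes in early wt embryos, late cytoplasmic extracts and late nuclear extracts, with a point for each library and a line at the mean of the 2 libraries. All late points lie above the early points, and the points of both extracts overlap for halo and SNCF.

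Whether these genes rose after the first 45 min was tested for each extract against early embryos with limma on log2(normalized count + 1), over the 10335 genes whose mean reached 5 in any group. In nuclear extracts all 6 rose, where 8.35% of all genes tested were called higher. SNCF rose 50.9-fold between group means, with a log2 fold change of 5.98 (SE 0.46, limma adjusted p = 2e-07). Sry-alpha rose 45.8-fold, with a log2 fold change of 5.64 (SE 0.37, limma adjusted p = 1.3e-07). The furrow gene bnk followed with 5.57 (SE 0.52), halo with 5.27 (SE 0.44) and nullo with 4.69 (SE 0.51), all at a limma adjusted p of 4.1e-06 or less. slam rose least, 9.70-fold, with a log2 fold change of 3.29 (SE 0.33, limma adjusted p = 1.8e-06). The median over the 6 genes was 5.42, against 0.09 over all genes tested. The sizes rest on the early libraries: without early replicate 1 the log2 fold changes ran from 3.51 for slam to 6.98 for SNCF, and without early replicate 2 from 3.06 for slam to 5.00 for Sry-alpha, just above SNCF with 4.97.

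In cytoplasmic extracts all 6 also rose, where 17.8% of all genes were called higher. SNCF had the largest log2 fold change of the 6, 5.90 (SE 0.46, limma adjusted p = 4.5e-07), and halo followed with 5.50 (SE 0.44, limma adjusted p = 4.5e-07). Sry-alpha had 4.64, nullo 4.29 and bnk 4.07, with limma adjusted p of 2.6e-05 or less. slam rose 2.76-fold, with a log2 fold change of 1.48 (SE 0.33, limma adjusted p = 0.0028). Without early replicate 2 the rise of slam was no longer called (1.25, limma adjusted p = 0.14). Over the 6 genes the values ran from 1.70 to 6.91 without early replicate 1 and from 1.25 to 4.90 without early replicate 2. The median over the 6 genes was 4.46, against 0.00 over all genes. Both comparisons use the same early libraries. Early libraries are whole embryos and late ones are extracts, so that stage and fractionation cannot be told apart. In nuclear extracts nullo lost its call without nuclear replicate 1 or without nuclear replicate 2 (limma adjusted p = 0.056 and 0.055) and bnk without nuclear replicate 2 (0.051), with log2 fold changes of 4.55 to 5.32.

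**Figure D2:**
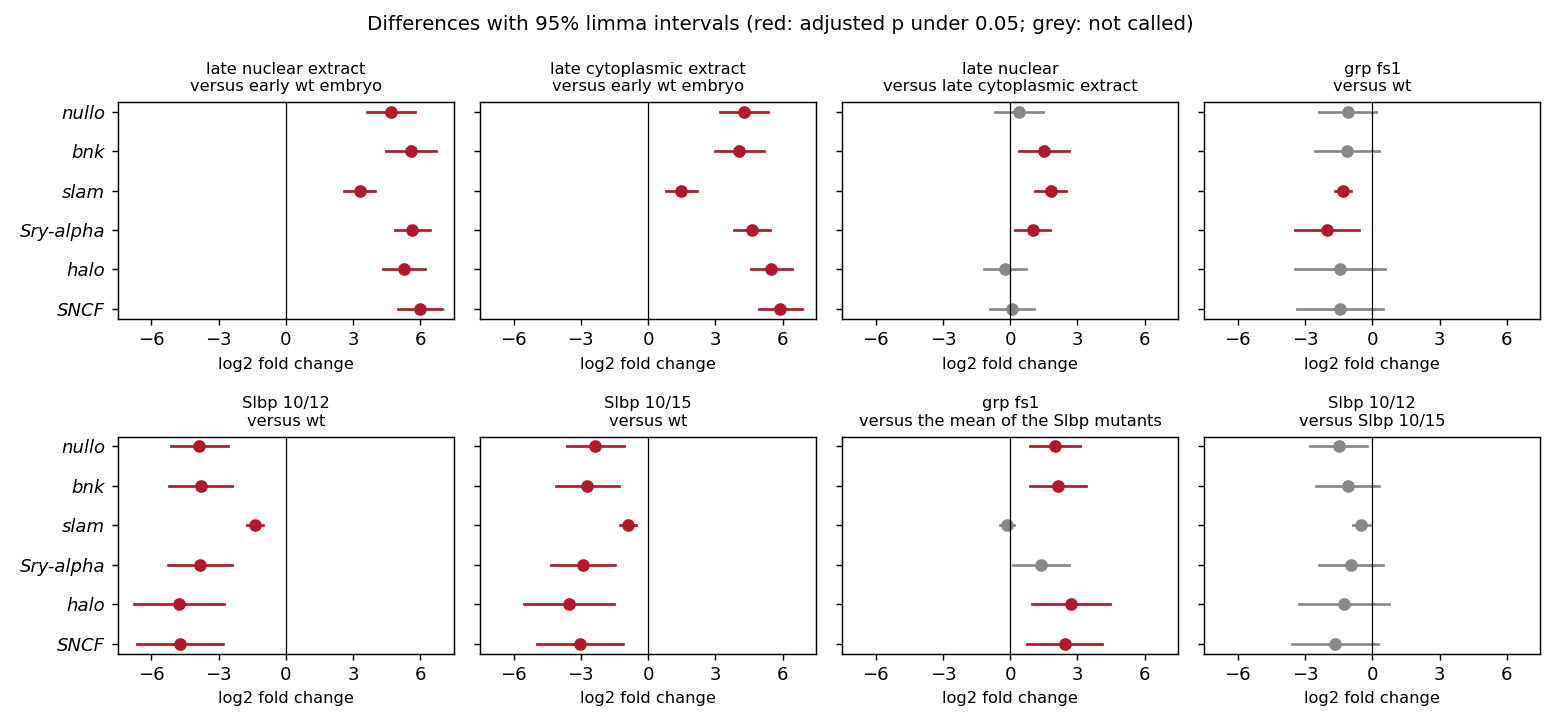
Log2 fold changes of the 6 genes (points) with 95% limma intervals (bars) in the 8 comparisons, red where the adjusted p was under 0.05 and grey elsewhere. All 6 are red and above 0 in both late extracts against early embryos and red and below 0 in both Slbp mutants against wt, and slam has the smallest change in all 4.

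Between the extracts slam, bnk and Sry-alpha were called higher in the nuclear one. slam was 3.51-fold higher in nuclear extracts, with a log2 difference of 1.81 (SE 0.33, limma adjusted p = 0.00022). bnk was 2.72-fold higher (1.50, SE 0.52, limma adjusted p = 0.022) and Sry-alpha 2.02-fold higher (1.01, SE 0.37, limma adjusted p = 0.029). For nullo the difference was 0.40 (95% interval -0.67 to 1.48, limma adjusted p = 0.51), although its nuclear libraries lay above its cytoplasmic ones. For halo it was -0.23 (95% interval -1.15 to 0.70, limma adjusted p = 0.67), or 0.18 with upper quartile scaling, and for SNCF 0.07 (95% interval -0.90 to 1.05, limma adjusted p = 0.9). Thus 3 of the 6 were called higher, where 26.9% of all genes were. Differences between the genes were not tested, and the intervals of nullo, halo and SNCF each reach past 0.9 log2 units in at least 1 direction. The median of all genes was 0.24 in this comparison, and 0.64 with upper quartile scaling, under which bnk was not called (1.91, limma adjusted p = 0.07). Sry-alpha was not called with only the groups compared (limma adjusted p = 0.073), and with no filter on low values neither bnk (0.064) nor Sry-alpha (0.062) was. Without cytoplasmic replicate 1, nuclear replicate 1 or nuclear replicate 2 slam alone was called, and bnk and Sry-alpha kept log2 differences of 0.84 to 1.76.

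The levels per length changed their order between stages. The normalized count per kilobase of the gene length was used here, with the lengths of the mutant table for both tables. In early embryos slam stood first, with 1014 per kilobase, above Sry-alpha with 304.9, SNCF with 237 and halo with 234, and the libraries of these 3 overlapped. nullo (50.8) and bnk (46.9) overlapped with each other at the bottom. In cytoplasmic extracts SNCF (11617) and halo (9099) stood first with overlapping libraries, and slam (2798) stood below Sry-alpha (6895) without overlap. In nuclear extracts Sry-alpha (13960), SNCF (12086), slam (9836) and halo (7746) overlapped from each to the next, and bnk (1818) stood above nullo (1082) without overlap. slam held 46.7% and 67.5% of the summed level per kilobase of the 6 genes in the early libraries, 9.46% and 8.26% in the cytoplasmic and 21.5% and 20.8% in the nuclear ones. Of the wt libraries, those of early embryos thus had the highest share of slam.

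The mutants set the maternal loss of Chk1 beside that of the histone mRNA factor, and RNA levels of the 6 genes were compared between them and wt. nullo had 315 and 395 normalized counts in the wt libraries, 94.2 and 283 with grp fs1, 33.0 and 16.6 with Slbp 10/12 and 62.6 and 74.2 with Slbp 10/15. bnk had 446 and 839 in the wt libraries, 193 and 405 with grp fs1, 61.3 and 29.7 with Slbp 10/12 and 150.4 and 57.4 with Slbp 10/15. No mutant library of either gene reached a wt library. slam had 13705 and 13905 normalized counts in the wt libraries, 4758 and 6639 with grp fs1, 5480 and 5060 with Slbp 10/12 and 8148 and 6699 with Slbp 10/15. Sry-alpha had 4654 and 4013 in the wt libraries, 746 and 1525 with grp fs1, 416 and 214 with Slbp 10/12 and 1082 and 306 with Slbp 10/15. slam thus kept 34.5% to 59.0% of its wt mean in the 6 mutant libraries, and Sry-alpha 4.94% to 35.2%. halo had 1513 and 1426 normalized counts in the wt libraries, 381 and 766 with grp fs1, 97.0 and 28.0 with Slbp 10/12 and 303.0 and 52.5 with Slbp 10/15. SNCF had 1879 and 1496 in the wt libraries, 368 and 1019 with grp fs1, 102.5 and 38.4 with Slbp 10/12 and 451 and 91.1 with Slbp 10/15. All 6 mutant libraries lay below both wt libraries for all 6 genes. How many of all genes were separated in this way was not computed.

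**Figure D3:**
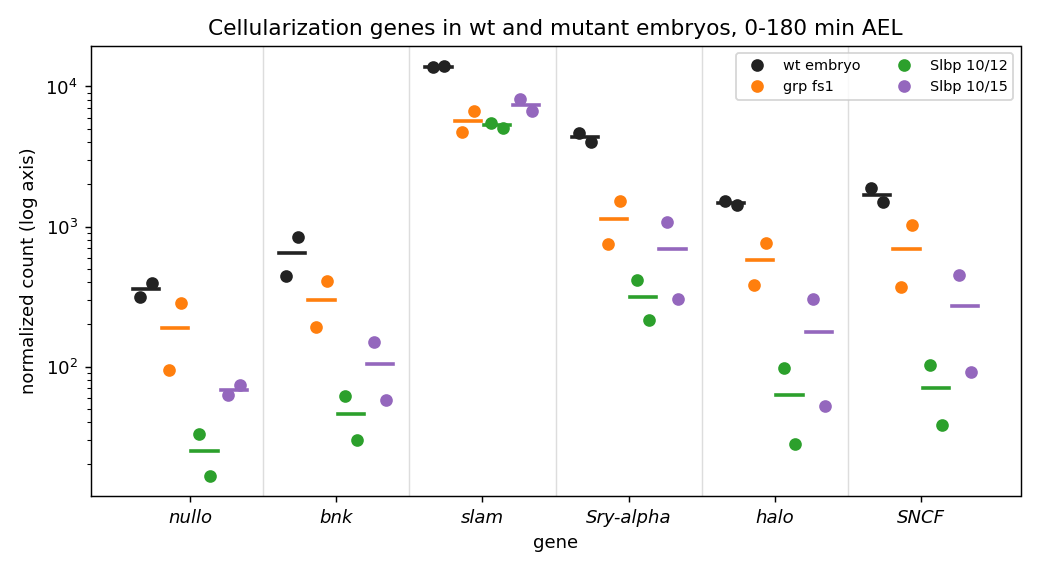
Normalized counts (log axis) of the 6 genes in embryos of 0 to 180 min that were wt or of 1 of the 3 mutants, with a point for each library and a line at the mean of the 2 libraries. Every mutant point lies below the wt points of its gene, and the fall is smallest for slam in both Slbp mutants.

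In Slbp 10/12 all 6 genes fell against wt by limma over the 9868 genes tested, where 33% of all genes were called lower. SNCF and halo were at 4.18% and 4.25% of their wt means, with log2 fold changes of -4.71 (SE 0.82, limma adjusted p = 0.0041) and -4.79 (SE 0.86, limma adjusted p = 0.0045). The furrow genes nullo, bnk and Sry-alpha were at 6.98%, 7.09% and 7.27% of wt, with log2 fold changes of -3.86, -3.81 and -3.85 and limma adjusted p of 0.0022 to 0.0031. slam was at 38.2% of wt, with a log2 fold change of -1.39 (SE 0.16, limma adjusted p = 0.0011). The median over the 6 genes was -3.85, against -0.11 over all genes. Without wt replicate 1 or wt replicate 2 only 3 of the 6 were called, with limma adjusted p of 0.051 to 0.067 for those lost. Leaving out Slbp 10/12 replicate 1 or 2 moved halo to -5.67 or -3.91 and SNCF to -5.41 or -4.02.

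In Slbp 10/15 all 6 genes also fell, where 38.9% of all genes were called lower. halo was at 12.1% of its wt mean, with a log2 fold change of -3.53 (SE 0.86, limma adjusted p = 0.011), and SNCF at 16.1%, with -3.04 (SE 0.82, limma adjusted p = 0.016). Sry-alpha (16.0%), bnk (16.2%) and nullo (19.3%) had log2 fold changes of -2.91, -2.70 and -2.36, with limma adjusted p of 0.0066 to 0.0093. slam was at 53.8% of wt, with a log2 fold change of -0.90 (SE 0.16, limma adjusted p = 0.0033). The 2 libraries differed, with halo 5.8 times, SNCF 4.96 times and Sry-alpha 3.54 times higher in replicate 1, slam 1.22 times higher, and nullo higher in replicate 2. Without Slbp 10/15 replicate 2 only nullo, slam and Sry-alpha were called, and without either wt library only slam was. Leaving out Slbp 10/15 replicate 1 or 2 moved halo to -4.78 or -2.27, SNCF to -4.19 or -1.89, Sry-alpha to -3.82 or -2.0 and bnk to -3.39 or -2.02. The median over the 6 genes was -2.80, against -0.19 over all genes.

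In grp fs1 the means of all 6 genes lay below wt. By limma 2 of the 6 were called lower, which is near the share of 28.7% over all genes. Sry-alpha was at 26.2% of wt, with a log2 fold change of -2.02 (SE 0.61, limma adjusted p = 0.034), and slam at 41.3%, with -1.30 (SE 0.16, limma adjusted p = 0.0015). halo was at 39.0% of wt (log2 -1.44, 95% interval -3.45 to 0.57), SNCF at 41.1% (-1.45, -3.37 to 0.46), bnk at 46.6% (-1.13, -2.54 to 0.29) and nullo at 53.2% (-1.10, -2.38 to 0.17), with limma adjusted p of 0.14 to 0.2. These intervals include both no change and a fall larger than that of Sry-alpha. Replicate 2 was higher than replicate 1 for all 6 genes, by 1.40 times for slam to 3.01 times for nullo. Sry-alpha lost its call without grp fs1 replicate 1 (-1.50, limma adjusted p = 0.2), wt replicate 1 (0.2) or wt replicate 2 (0.17), and nullo gained one without grp fs1 replicate 2 (-1.89, limma adjusted p = 0.02). The median over the 6 genes was -1.37, against -0.10 over all genes. All 3 mutants are compared with the same wt libraries.

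The difference between the mutants was tested directly, and 4 of the 6 genes were higher in grp fs1 than in the mean of the Slbp mutants, where 19.4% of all genes were called higher. halo was higher by a log2 difference of 2.71 (SE 0.74, limma adjusted p = 0.026), SNCF by 2.42 (SE 0.71, limma adjusted p = 0.033), bnk by 2.13 (SE 0.52, limma adjusted p = 0.018) and nullo by 2.00 (SE 0.47, limma adjusted p = 0.015). For Sry-alpha the difference was 1.36 (95% interval 0.12 to 2.60, limma adjusted p = 0.085). For slam it was -0.15 (95% interval -0.47 to 0.17, limma adjusted p = 0.42), the narrowest interval of the 6 genes. None of the 4 calls remained when only the 3 mutants entered the fit, with limma adjusted p of 0.061 to 0.11. Without grp fs1 replicate 2, slam alone was called, and was lower (-0.39, limma adjusted p = 0.048). Without grp fs1 replicate 1 or Slbp 10/12 replicate 2, 2 of the 6 were called, 3 without Slbp 10/15 replicate 2 and 5 without Slbp 10/15 replicate 1. Without grp fs1 replicate 1 or 2 nullo was at 2.79 or 1.21 and SNCF at 3.16 or 1.69, and without Slbp 10/15 replicate 1 or 2 halo was at 3.34 or 2.09. Of the 5 genes of a list named for the time before cellularization sisA (4.37, limma adjusted p = 0.0013) and Bsg25A (2.17, limma adjusted p = 0.024) were also higher in grp fs1. The others, sc (0.35), run (0.78) and Z600 (0.69), were not called. The part of stage in the result was not tested.

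Between the Slbp mutants none of the 6 genes was called by limma, where 3.29% of all genes were called in either direction. nullo (-1.50, 95% interval -2.77 to -0.23) and slam (-0.49, 95% interval -0.85 to -0.12) were lower in Slbp 10/12 at an unadjusted p under 0.05 (2 of the 6), and did not overlap between the mutants. The 3.29% counts adjusted calls and is no measure for these 2. Shares of all genes at the unadjusted threshold or without overlap were not computed. The adjusted p of the 6 genes ran from 0.12 to 0.46 by limma. edgeR called 0 of the 6 and DESeq2 called 1, slam (adjusted p = 0.017). The means of all 6 were lower in Slbp 10/12, and the libraries of bnk, Sry-alpha, halo and SNCF overlapped.

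The levels per length of the mutant table, as the FPKM values of the authors, show what the unequal falls did to the order of the genes. In wt slam had 157 ± 1.61 FPKM (SD, n = 2), SNCF 129 ± 20.8, Sry-alpha 108 ± 11.3 and halo 105 ± 4.38. nullo with 19.6 ± 3.11 FPKM and bnk with 19.0 ± 8.24 overlapped at the bottom. slam stood clear of SNCF, whereas SNCF overlapped with Sry-alpha and Sry-alpha with halo. In grp fs1 slam (64.9 ± 15.1), SNCF (53.2 ± 35.3), halo (40.9 ± 19.4) and Sry-alpha (28.3 ± 13.7) overlapped from each to the next. In Slbp 10/12 slam had 60.0 ± 3.38 FPKM, and the next gene, Sry-alpha, had 7.85 ± 3.56. In Slbp 10/15 slam had 84.5 ± 11.7 and SNCF 20.8 ± 19.5. slam held 28.1% and 30.4% of the summed level per kilobase of the 6 genes in wt, 39.0% and 27.6% with grp fs1, 68.4% and 82.7% with Slbp 10/12 and 50.5% and 76.0% with Slbp 10/15. Its share was higher in all 4 Slbp libraries than in wt, and overlapped with wt in grp fs1.

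Lists of genes named for a stage also differed between the mutants and wt, and are given per library as percent of their wt mean. The list named for the time before cellularization (sisA, sc, run, Bsg25A and Z600) summed to 33.2% and 93.9% with grp fs1, 7.73% and 6.10% with Slbp 10/12 and 26.4% and 12.4% with Slbp 10/15. Its genes also rose in both late extracts against early embryos, with medians of 4.26 in nuclear and 4.81 in cytoplasmic ones. A stage earlier than that of the 6 genes is thus not shown for this list. Over the same mutant libraries the cellularization gene SNCF was at 21.8% and 60.4%, 6.08% and 2.28%, and 26.7% and 5.40%. The higher library of this list was the higher library of all 6 genes in grp fs1 and in Slbp 10/12, and of all but nullo in Slbp 10/15, where nullo was at 17.6% and 20.9%. Bsg25A held 2362 of the 4425 normalized counts of this list in wt replicate 1, and 481 of 1432 in grp fs1 replicate 1. It is also the gene nearest in pattern to halo and SNCF, as given below, so that the match is not independent for them. The 8 homeotic and segment polarity genes that follow cellularization summed to 0.352% and 1.62% with grp fs1, 3.85% and 9.42% with Slbp 10/12 and 6.75% and 0.587% with Slbp 10/15. The 17 genes of later embryos summed to 0.124% and 15.1% with grp fs1, 0.522% and 0.532% with Slbp 10/12 and 1.00% and 0.655% with Slbp 10/15. In both Slbp mutants 16 of these 17 were called lower and the cuticle gene Cpr49Ae was called higher (3.36 and 4.21, limma adjusted p = 0.0035 and 0.0015). The sums of these 2 lists stood lower against wt than any of the 6 genes in all mutant libraries but Slbp 10/12 replicate 2, in which the list of 8 genes stood above 5 of the 6 genes. The part of embryo age in the levels of the 6 genes was not tested. Of the 5 genes of the first list, sisA rose in grp fs1 (1.89, limma adjusted p = 0.039), run fell (-2.32, adjusted p = 0.0092) and Z600 fell (-3.84, adjusted p = 0.032).

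**Figure D4:**
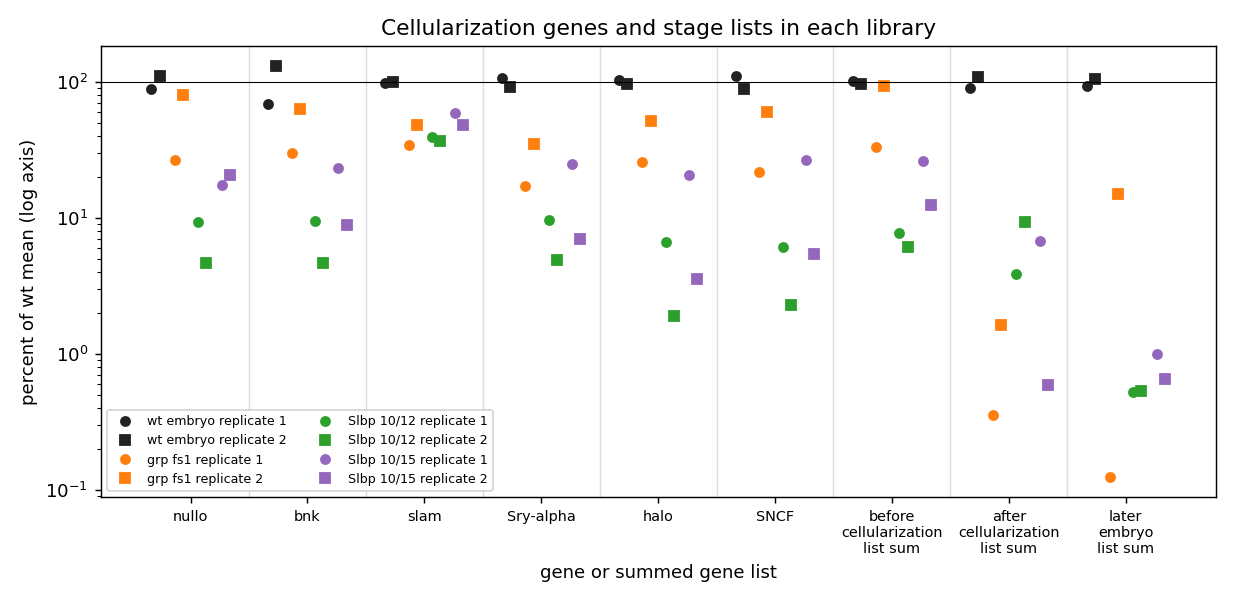
Percent of the wt mean (log axis) in each library of the mutant table for the 6 genes and for 3 summed lists of stage markers, with colours for genotypes and shapes for replicates. slam lies between 34.5% and 59.0% in all mutant libraries, and the list of later embryos between 0.124% and 15.1%.

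Most other genes that build the furrow are supplied by the mother, and their RNA is described here beside that of the 6 zygotic genes. Of 41 tested genes of actomyosin, septins, membrane traffic and junctions, 6 were higher and 0 lower in late nuclear extracts than in early embryos, with a median log2 fold change of 0.44 against 5.42 for the 6 zygotic genes. The ubiquitin ligase gene neur (1.55, limma adjusted p = 0.00072), the FERM domain gene Cdep (1.50, limma adjusted p = 0.0067) and the E-cadherin gene shg (1.50, limma adjusted p = 0.00088) changed most. In cytoplasmic extracts 2 of the 41 were higher and 22 lower than in early embryos (median -0.89), and between the extracts 29 were higher in nuclear and 4 in cytoplasmic ones (median 1.52, against 0.71 for the 6 zygotic genes). Of all 10335 genes tested, 863 were higher and 1622 lower in nuclear extracts than in early embryos, and 1842 and 1967 in cytoplasmic ones. Between the extracts 2779 were higher in nuclear and 2953 in cytoplasmic ones. Against wt, 40 machinery genes were tested, and 6 were higher and 10 lower with grp fs1, 8 and 6 with Slbp 10/12, and 16 and 4 with Slbp 10/15, with medians of -0.04, 0.07 and 0.08. Of all 9868 genes tested, 1407 were higher and 2836 lower with grp fs1. The counts were 1539 and 3256 with Slbp 10/12, and 1979 and 3837 with Slbp 10/15. The summed level of the machinery genes was 93.7% to 107% of wt in the 6 mutant libraries, in which the 6 zygotic genes summed to 24.2% to 47.7%. The latter sum rests mostly on slam, with 13705 of 22512 normalized counts in wt replicate 1 and 5480 of 6190 in Slbp 10/12 replicate 1. Without slam, the single zygotic genes were at 4.18% to 7.27% of wt in Slbp 10/12.

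halo acts with the motors of lipid droplets, and 8 genes of that transport were tested beside it. Of these 0 were higher and 4 lower in late nuclear extracts than in early embryos, among them the dynein heavy chain gene Dhc64C (-2.31, limma adjusted p = 5.3e-05), the dynein adaptor gene egl (-1.31, limma adjusted p = 0.012) and the kinesin light chain gene Klc (-1.31, limma adjusted p = 0.0062). In cytoplasmic extracts 1 was higher and 2 were lower. Against wt, 9 were tested, and 1 was higher and 0 lower with grp fs1, 3 and 1 with Slbp 10/12 and 2 and 1 with Slbp 10/15. The counts over all genes are those given above beside the machinery. halo had a larger change than any of these transport genes in each of these comparisons, although in grp fs1 it was not called.

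Among 6 further genes of cell shape, 3 rose in late nuclear extracts. CG34137, now named dunk, which acts on actomyosin as the furrows form, had 5.16 on the log2 scale (SE 0.41, limma adjusted p = 2.1e-07). The adhesion protein gene Nrt had 3.70 (SE 0.30, limma adjusted p = 2.9e-07) and btsz, which encodes a synaptotagmin-like protein, 3.28 (SE 0.30, limma adjusted p = 6.4e-07). The same 3 were higher in cytoplasmic extracts. Against wt, 5 were tested, and 2 were higher and 2 lower with grp fs1, 0 and 2 with Slbp 10/12 and 1 and 4 with Slbp 10/15. Counts over all genes are given above beside the machinery. CG34137 fell by 1.75 log2 units with grp fs1, 4.49 with Slbp 10/12 and 2.93 with Slbp 10/15 (limma adjusted p = 0.031, 0.0011 and 0.0036), and Nrt by 2.14, 2.42 and 1.76 in the same order (limma adjusted p = 0.0015, 0.00092 and 0.002). CG34137 was higher in grp fs1 than in the mean of the Slbp mutants (1.96, limma adjusted p = 0.014), like nullo and bnk. For Nrt that difference was -0.05 (limma adjusted p = 0.88), and for slam -0.15, as given above.

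**Figure D5:**
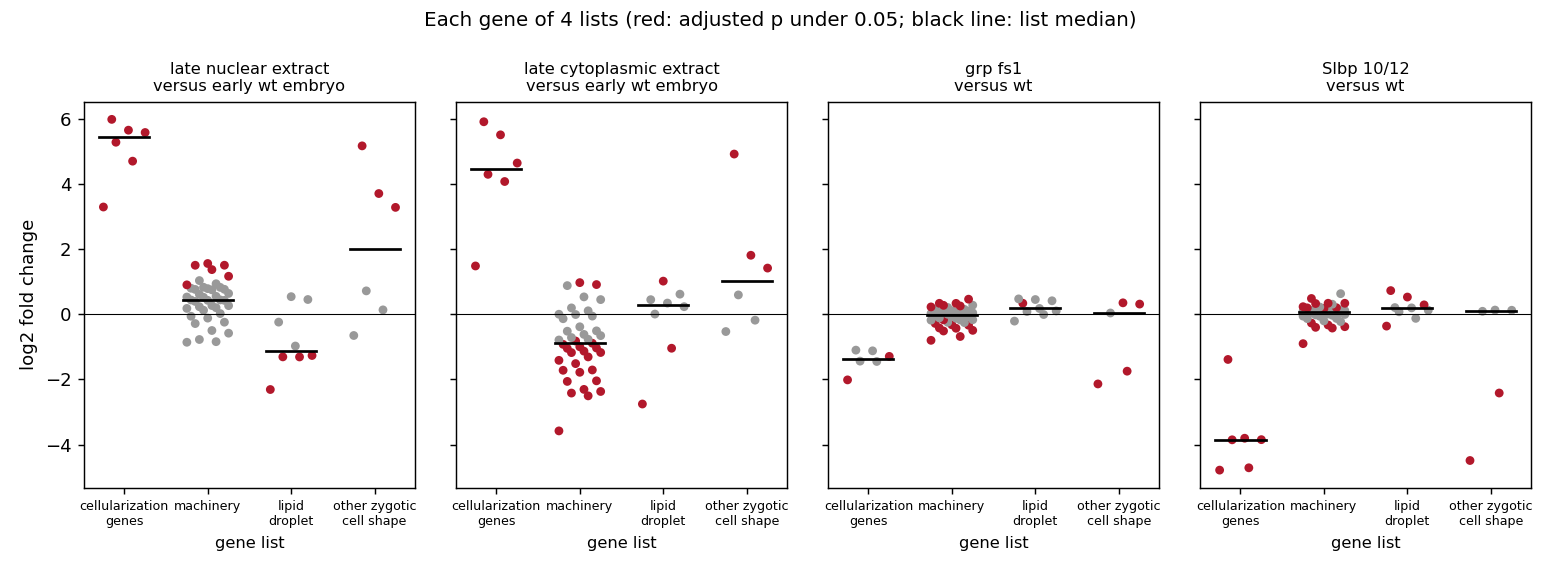
Log2 fold changes of each tested gene of 4 lists (points, red where the adjusted p was under 0.05) with the median of each list (black line), in both late extracts against early embryos and in grp fs1 and Slbp 10/12 against wt. The 6 cellularization genes have medians of 5.42, 4.46, -1.37 and -3.85, and the maternal machinery 0.44, -0.89, -0.04 and 0.07.

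The 6 genes were compared with each other and with 7256 candidate genes by the difference of their patterns over all 14 libraries, as the root mean square of log2 values centred within each table. The libraries share stage and genotype, so that these values are descriptions. The closest pair among the 6 was halo and SNCF, with a root mean square difference of 0.28 log2 units (Pearson r = 0.99). slam was farthest from the others, at 1.19 to 1.69 (r = 0.76 to 0.89), and the 10 pairs without slam lay between 0.28 and 0.74. Nearest to nullo were tsg, which encodes a secreted regulator of BMP signalling (0.29, r = 0.99), the dorsal homeobox gene zen (0.30) and CG34137 (0.38). Nearest to bnk were Elba3, which encodes a subunit of the ELBA insulator complex (0.33, r = 0.99), CG15382 (0.33) and CG43184 (0.38). Sry-alpha lay nearest to the terminal gap gene tll (0.23, r = 0.99), then CG14317, now named bard (0.30), and the BMP protease gene tld (0.34). halo and SNCF shared Bsg25A, now named Elba1, which encodes another ELBA subunit, as the nearest gene (0.37 and 0.31). They also shared CG7271 (0.43 and 0.39), and the others were CG14317 for halo (0.41) and term for SNCF (0.40). slam had neighbours of its own, the septin gene Sep5 (0.23, r = 0.98), the poly(A) polymerase gene hrg (0.26) and Nrt (0.36). None of the 3 was among the nearest genes of the other 5.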

How the data were processed

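RNA was depleted of ribosomal RNA, and the authors aligned the HiSeq reads to dm3 with TopHat and counted them per gene (featureCounts). The deposited signal is the normalized count: read counts divided by 1 size factor per library (DESeq in the submitters' notes, DESeq2 in the paper). The deposited FPKM values divide it by gene length. Whole reads were recovered from the steps of the values (100% within 0.01 reads; in Slbp 10/15 replicate 2 the step was too close to 1 to tell it from rounding), with 17368684 to 33866670 reads per library.

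Each table was fitted with limma 3.58.1 (R 4.3.3), trended, on log2(normalized count + 1), which understates changes of low genes. Genes whose mean reached 5 in any group entered (10335 and 9868, all 6 genes included), with 1 term per group, two-sided, Benjamini-Hochberg adjustment over all genes tested and calls at an adjusted p under 0.05. Alternatives were edgeR 4.0.16 and DESeq2 1.42.0 on whole reads, upper quartile scaling, other filters, a pseudocount of 5, a replicate block, each library left out in turn and only the groups compared. The scripts were tested on simulated data. Named were the 6 genes, the 3 genes nearest in pattern to each and 3 genes per list with the largest change in late nuclear extracts (mean of at least 50). Other genes of the stage and noncoding RNA lists were chosen after their values were seen. The 6 genes and the lists were chosen with earlier results of these data known. Coordinates and current symbols are from Ensembl BDGP6.54, not the build of the counts. Of the site sequences of the study only the letters were used.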

Additional observations from a re-analysis of the deposited data

Results flagged for a closer look

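For 4 of the 6 genes the change against wt differed between grp fs1 and the mean of the Slbp mutants by the limma test of the difference itself. The log2 difference was 2.00 for nullo, 2.13 for bnk, 2.71 for halo and 2.42 for SNCF, with grp fs1 higher, where 19.4% of all genes were called higher. None of the 4 was called when only the 3 mutants entered the fit (limma adjusted p of 0.061 to 0.11). Of the 5 genes of the list named for the time before cellularization sisA (4.37) and Bsg25A (2.17) were also called higher in grp fs1. The others, sc (0.35), run (0.78) and Z600 (0.69), were not called. Of the 8 genes that follow cellularization 0 were called higher and 1 lower, wg (-2.17, limma adjusted p = 0.037). Over all 9868 genes tested 1914 were called higher and 1609 lower. In grp fs1 these 8 genes summed to only 6.53 and 30.1 normalized counts, so that their differences lie near the floor. Both grp fs1 libraries lay above all 4 Slbp libraries for nullo (94.2 and 283 normalized counts against 16.6 to 74.2) and for bnk (193 and 405 against 29.7 to 150.4). The same held for halo (381 and 766 against 28.0 to 303.0), whereas for SNCF the lower grp fs1 library (368) lay below the higher Slbp 10/15 library (451). How many of all genes were separated in this way was not computed.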

How the results depend on the processing

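Of 588 values of single genes under the alternatives, 527 kept their direction and their side of the threshold, 50 lost a call, 5 gained one and 6 changed sign, and 372 of the 384 that leave out no library were unchanged. The sign changes were all of values that were not called. halo between the extracts was at 0.18 with upper quartile scaling. Leaving out each library in turn, halo ran from -0.50 to 0.042 and SNCF from -0.20 to 0.35 between the extracts, and slam from -0.39 to 0.090 between grp fs1 and the Slbp mutants. With no filter on low values 1 of the 6 genes was called between the extracts in place of 3. With only the groups compared 0 were called between grp fs1 and the Slbp mutants in place of 4, and DESeq2 called 1 between the Slbp mutants in place of 0. The cause was not tested. Leaving out each library in turn gave 4 to 6 calls in nuclear and 5 to 6 in cytoplasmic extracts against early embryos, 1 to 3 between the extracts, 1 to 3 in grp fs1, 3 to 6 in Slbp 10/12, 1 to 6 in Slbp 10/15, 1 to 5 between grp fs1 and the Slbp mutants and 0 to 0 between the Slbp mutants. An arm with 1 library is then assumed to vary like the other groups.

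With upper quartile scaling the median over all genes went from -0.10 to -0.41 in grp fs1, -0.11 to -0.49 in Slbp 10/12, -0.19 to -0.56 in Slbp 10/15 and 0.09 to 0.41 in nuclear extracts against early embryos. The share of all calls that were higher went from 33.2% to 4.46%, 32.1% to 3.24%, 34.0% to 4.34% and 34.7% to 55.5% in the same order, and from 54.3% to 70.4% between grp fs1 and the Slbp mutants. Each of the 6 genes moved with the whole scale. The labels share replicate numbers, but nothing says that these pair the samples. With the number as a replicate block the calls of the 6 genes were 6, 6, 3, 2, 6, 6, 4 and 0 in the order of the report, as without it, and same-numbered differences correlated at -0.514 to 0.0919 between groups. Of the 18 nearest genes 13 stayed with Pearson correlation and 10 with the mutant table only. Planned searches of promoters for CAGGTAG and TATAAA were not run, since no promoter sequence was used here. Depth limits nullo and bnk, with as few as 19 and 32 reads in a library. It also limits halo and SNCF, with 32 and 44 reads in Slbp 10/12 replicate 2.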
